A study of Mus musculus with 6 samples.

Results

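Prostaglandins and leukotrienes are lipid signals made from arachidonic acid, and the 10 genes described here carry the main steps of their synthesis and of the response to prostaglandin E2. They are Pla2g4a, Ptgs1, Ptgs2, Ptges, Ptger2, Ptger4, Alox5, Alox5ap, Lta4h and Ltc4s, chosen by name from the 23398 genes of the deposited expression table. Each name was found once, and all 10 are protein coding. RNA was sequenced from mouse bone marrow derived dendritic cells after 12 hours with Ca(OH)2 nanoparticles (3 libraries) or with vehicle (3 libraries). The comparison asks which of these transcripts differ between cells given nanoparticles and cells given vehicle. The cells were grown in DMEM with serum and antibiotics. The labels give no strain, age, sex, growth factor or particle dose, and they do not say whether libraries of a group came from separate cultures or animals, so p-values measure the spread between these libraries, which may be technical.

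Arachidonic acid is cut from membrane phospholipids by the cytosolic phospholipase A2 that Pla2g4a encodes. Cyclooxygenases turn it into prostaglandin H2, from which terminal synthases such as that of Ptges make prostaglandin E2, a signal read by the receptors EP2 (Ptger2) and EP4 (Ptger4). On the other branch, the enzyme of Alox5, helped by the membrane protein of Alox5ap, makes leukotriene A4, which Lta4h converts to leukotriene B4 and Ltc4s to leukotriene C4. In dendritic cells prostaglandin E2 is known for its part in maturation and in migration through Ccr7, and leukotrienes are known for their part in recruiting and guiding leukocytes.

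The sequences before the start sites of the 4 genes with the largest changes are shown first. Of these genes Ptgs2 and Ptges rose, and Ptgs1 and Alox5 fell. No link between the sequences and the changes was tested. The sequences are from RefSeq on GRCm38.p6, read 5′ to 3′ on the gene's strand, and 9 of the 10 genes had an entry. Capitals mark every match, on either strand, to 9 short motifs: the core of a cAMP response element (TGACG), an E-box (CACGTG), a C/EBP site (TTGCNNAA), an NF-kappaB site, a GC box (GGGCGG), an EGR site (GTGGGCG, which can overlap a GC box), an AP-1 site (TGANTCA), an IRF site and a TATA box (TATAAA). The 250 bases before the start are given for each gene, chr1:150099781-150100030 for Ptgs2 (plus strand), chr2:30903298-30903547 for Ptges (minus strand), chr2:36230176-36230425 for Ptgs1 (plus strand) and chr6:116461179-116461428 for Alox5 (minus strand). The fifth line holds 30 bases of Ptgs2 just after its annotated start, chr1:150100037-150100066.
Ptgs2: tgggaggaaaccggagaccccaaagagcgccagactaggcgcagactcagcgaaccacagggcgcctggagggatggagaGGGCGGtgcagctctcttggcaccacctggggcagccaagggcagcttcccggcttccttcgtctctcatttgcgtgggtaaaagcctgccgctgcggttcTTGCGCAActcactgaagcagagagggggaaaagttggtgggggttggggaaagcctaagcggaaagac
Ptges: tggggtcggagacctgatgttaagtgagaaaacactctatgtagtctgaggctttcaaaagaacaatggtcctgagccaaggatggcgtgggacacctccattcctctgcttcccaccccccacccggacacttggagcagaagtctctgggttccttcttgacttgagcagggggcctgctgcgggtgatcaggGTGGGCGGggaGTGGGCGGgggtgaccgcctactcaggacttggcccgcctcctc
Ptgs1: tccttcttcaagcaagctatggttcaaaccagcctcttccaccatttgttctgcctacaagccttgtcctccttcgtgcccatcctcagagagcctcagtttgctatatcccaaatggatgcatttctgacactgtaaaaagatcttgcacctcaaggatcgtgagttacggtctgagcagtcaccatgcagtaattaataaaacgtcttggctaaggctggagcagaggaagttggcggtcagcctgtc
Alox5: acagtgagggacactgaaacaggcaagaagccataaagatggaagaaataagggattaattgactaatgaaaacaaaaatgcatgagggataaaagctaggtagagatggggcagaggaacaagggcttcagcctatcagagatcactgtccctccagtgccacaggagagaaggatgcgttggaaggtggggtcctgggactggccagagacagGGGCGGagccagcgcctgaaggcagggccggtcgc
Ptgs2 after the start: accactaCGTCACGTGgagtccgctttaca

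The 300-base window of Ptgs2 runs from 250 bases before the start to 50 after. It holds 1 GC box, which begins at base -170, and the C/EBP letters, which begin at base -69. The cAMP element core and the E-box begin at bases 14 and 17, where they overlap. Positions are counted from the annotated start, and where transcription starts in these cells was not tested. Letters placed after that start may thus lie before the start in use. Of all 32851 windows of the table, 10.8% hold the C/EBP letters, 20.8% the cAMP element core and 7.15% the E-box. The Ptges window holds 2 EGR matches, each overlapping a GC box. Its RefSeq start, at 30903297, lies inside the longer gene span given below, which on the minus strand begins at 30929863. EGR letters occur in 7.97% of all windows and GC boxes in 35.7%. The Ptgs1 window holds none of the 9 motifs and the Alox5 window holds 1 GC box. The 16 CpG pairs of the Ptgs2 window and the 10 of the Ptges window stand beside 6 for Ptgs1, 7 for Alox5 and a median of 7 over all windows. Such matches are descriptions of the letters in these windows.

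Expression was deposited per kilobase of gene length and is taken as FPKM, so levels of different genes can be set side by side. With annotated gene lengths, 95.8% to 96.1% of a library's values above 0 could be turned into whole reads, within 0.01 of a whole number, and recovered totals ran from 17285054 to 21980062 reads per library. Recovered reads per read of the deposited scale were 0.872 to 0.888 in vehicle and 1.09 to 1.14 with nanoparticles. The deposited values thus already carry a scaling between libraries that differs by group. Its method is not stated, and levels and folds below are on that scale. Nanoparticle library 1 stood apart from the others of its group. A chi-square of its reads against those of libraries 2 and 3, divided by its degrees of freedom, was 173 and 231, compared with 11.8 between libraries 2 and 3 and 2.85 to 5.33 between vehicle libraries. For that reason the differences of the 10 genes, and the calls of the other pathway genes, are given with and without it. The 10682 genes that reached 1 FPKM in 3 or more libraries were tested with limma on log2(FPKM + 1), and a gene was called at a Benjamini-Hochberg adjusted p under 0.05. Over all tested genes 33.2% were called, 17.0% higher and 16.2% lower with nanoparticles. That balance depends on the scaling: 1817 genes were higher and 1733 lower on the deposited scale, while with the FPKM of every library brought to the same sum 48.6% were called, 881 (8.25%) higher and 4306 (40.3%) lower, which moved the median log2 difference of all tested genes from 0.00 to -0.38. With the same total of recovered reads, 44.2% were called, 1108 (10.4%) higher and 3613 (33.8%) lower, with a median of -0.28.

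The dendritic cell markers Itgax (248 to 456 FPKM), Cd74 (2270 to 5273 FPKM) and H2-Ab1 were abundant in all 6 libraries. Of the others, Cd209a was at 5.17 to 6.21 FPKM in vehicle and at 0 to 0.0763 FPKM with nanoparticles. Clec10a was at 5.63 to 7.62 and 0.507 to 1.04 FPKM, and Zbtb46 at 3.66 to 4.15 and 1.73 to 2.76 FPKM. Ccr7 went the other way, at 1.75 to 2.62 and 105 to 124 FPKM. Flt3, a receptor of dendritic cell precursors, was at 0.0793 FPKM or less. Of the markers that define other cells, the mast cell gene Ms4a2 and the neutrophil genes Elane, Mpo and Ly6g were near 0. Near 0 means under 0.5 FPKM in every library, and the highest value was 0.307 FPKM (Elane in nanoparticle library 2). Other mast cell genes were not near 0. Cpa3 reached 1.47 FPKM, and over the 6 libraries Kit was at 0.710 to 1.35 FPKM and Gata2 at 0.817 to 3.22 FPKM. Other genes of the neutrophil list were present: Mmp8 was at 230.2 to 259 FPKM in vehicle and 129 to 133 FPKM with nanoparticles, S100a8 at 33.4 to 36.0 and 50.1 to 109 FPKM, and Ngp and Camp reached 4.30 and 1.99 FPKM. The macrophage genes Adgre1 (62.9 to 68.3 FPKM in vehicle, 132 to 276 FPKM with nanoparticles) and Mertk (15.7 to 26.3 FPKM) were expressed in every library, while Vsig4 was near 0. Cd68 and Fcgr1 rose, as Adgre1 did, and Mrc1, C1qa and C1qb fell. C1qa was at 118 to 167 FPKM in vehicle and 26.1 to 56.5 FPKM with nanoparticles, and C1qb at 256 to 325 and 64.8 to 124 FPKM. Summed FPKM of the 10 macrophage markers ran from 872 to 982 in vehicle and from 829 to 1076 with nanoparticles. The 8 dendritic cell markers summed to 5356 to 5761 in vehicle and to 3121 to 6918 with nanoparticles, the lowest being library 1. The 10 neutrophil markers summed to 264 to 297 and 179.6 to 243, and the 6 mast cell markers in the table to 3.73 to 5.78 and 1.99 to 4.05. Of those tested, 3 of 8 macrophage genes rose and 3 fell, 1 of 7 dendritic cell genes rose and 3 fell, 1 of 2 neutrophil genes rose and 1 fell, and 1 of 3 mast cell genes fell, beside 17.0% of all tested genes called higher and 16.2% lower. Their part in the results below was not tested.

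With nanoparticles the inducible cyclooxygenase Ptgs2, the prostaglandin E synthase Ptges and the phospholipase Pla2g4a rose. The constitutive cyclooxygenase Ptgs1 and, on the leukotriene branch, Alox5 and Lta4h fell. Thus 6 of the 10 genes were called (3 in each direction), beside the 33.2% called over all tested genes. In 7 of the 10 the vehicle and nanoparticle values did not overlap, beside 52.1% of all tested genes. Alox5ap, Ltc4s, Ptger2 and Ptger4 did not pass. All 10 genes passed the filter on low values, but Ptgs2 and Ptges reached 1 FPKM in at least 3 libraries only through the nanoparticle group, where they were high. Alox5, Ptger2 and Ltc4s reached it in 3 vehicle and 2 nanoparticle libraries, so they passed through the vehicle group, where Alox5 was high. Without nanoparticle library 1, 9 of the 10 were called, 5 higher and 4 lower, beside 64.8% of all tested genes (34.3% higher and 30.5% lower).

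**Figure D1:**
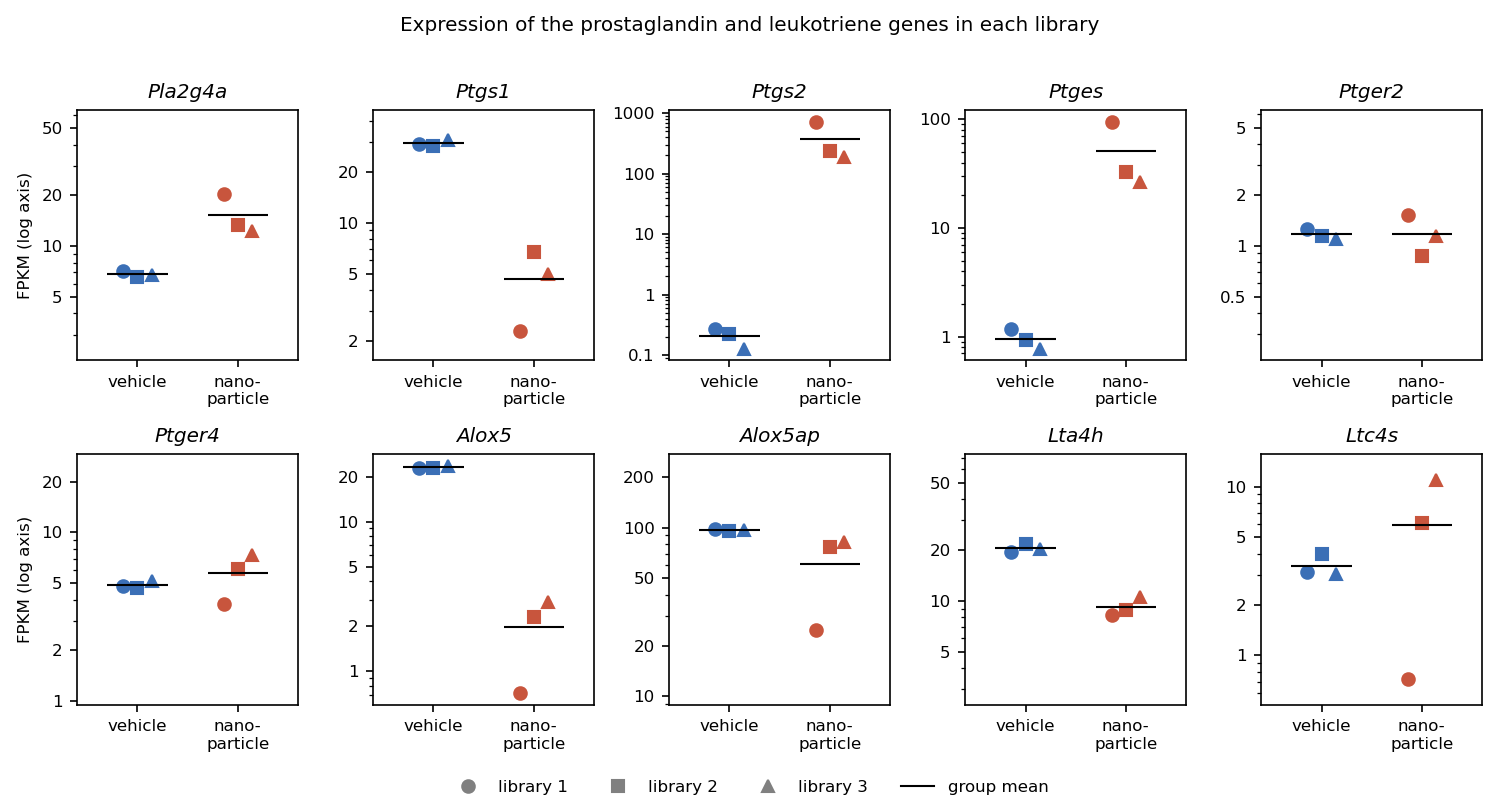
FPKM of the 10 genes in each library, on a log axis for each gene, with 3 vehicle libraries (blue) and 3 nanoparticle libraries (red) and a line at each group mean. Ptgs2 goes from 0.125 to 0.274 FPKM in vehicle to 185 to 723 FPKM with nanoparticles, and nanoparticle library 1 (circle) is the highest or the lowest of its group for each of the 10 genes.

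Pla2g4a (ENSMUSG00000056220) releases arachidonic acid in response to calcium and lies on chromosome 1, from 149829618 to 149961290 on the minus strand of GRCm38. It was at 7.18, 6.57 and 6.74 FPKM in vehicle libraries 1 to 3 and at 20.4, 13.3 and 12.3 FPKM in nanoparticle libraries 1 to 3. Every nanoparticle library was above every vehicle library, and library 1 was the highest. The means were 6.83 ± 0.311 and 15.4 ± 4.43 FPKM (SD, n = 3 each), a 2.25-fold difference, with a log2 difference of 1.03 (SE 0.191, limma adjusted p = 0.00785), or 0.82 without library 1. The size of this rise depends on the scaling. With the FPKM sums made equal its log2 difference was 0.61 and no longer passed (limma adjusted p = 0.0838), against a shift of -0.38 in the median of all genes.

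Ptgs2 (ENSMUSG00000032487), the inducible cyclooxygenase also called COX-2, lies on chromosome 1 from 150100031 to 150108227, on the plus strand close to Pla2g4a. Vehicle libraries 1 to 3 held 0.274, 0.220 and 0.125 FPKM, which rest on 25, 20 and 12 reads. Nanoparticle libraries 1 to 3 held 723, 232 and 185 FPKM, from 54082, 17601 and 16310 reads. The groups lay far apart, with the lowest nanoparticle library 895-fold above the vehicle mean and the highest 3501-fold above it. The fitted log2 difference was 8.03 (SE 0.492, limma adjusted p = 0.000148), and 7.43 without nanoparticle library 1. With a pseudocount of 0.1 in place of 1 it was 10.03, since adding 1 compresses a gene this low in vehicle.

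Ptgs1 (ENSMUSG00000047250), the cyclooxygenase that many cells make constantly, lies on chromosome 2 from 36230426 to 36252272 on the plus strand. It stood at 29.1, 28.4 and 31.0 FPKM in the vehicle libraries and at 2.29, 6.74 and 4.98 FPKM in the nanoparticle libraries. All treated libraries were below all controls, and library 1 was again the farthest from them. The mean fell from 29.5 ± 1.32 to 4.67 ± 2.24 FPKM (SD, n = 3 each), 6.32-fold, with a log2 difference of -2.51 (SE 0.304, limma adjusted p = 0.00155), or -2.16 without library 1. In RNA from whole cultures, fewer cells of a type and less RNA per cell cannot be told apart.

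Within a library the ratio of these cyclooxygenases does not depend on how libraries were scaled. Ptgs1 exceeded Ptgs2 by 106-fold, 129-fold and 247-fold in vehicle libraries 1 to 3. In nanoparticle libraries 1 to 3 Ptgs2 exceeded Ptgs1 by 316-fold, 34.5-fold and 37.1-fold. Ptgs2 thus made up 0.404% to 0.933% of cyclooxygenase FPKM in vehicle and 97.2% to 99.7% with nanoparticles. The sum of both genes was 28.6 to 31.1 FPKM in vehicle and 190 to 725 FPKM with nanoparticles.

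**Figure D2:**
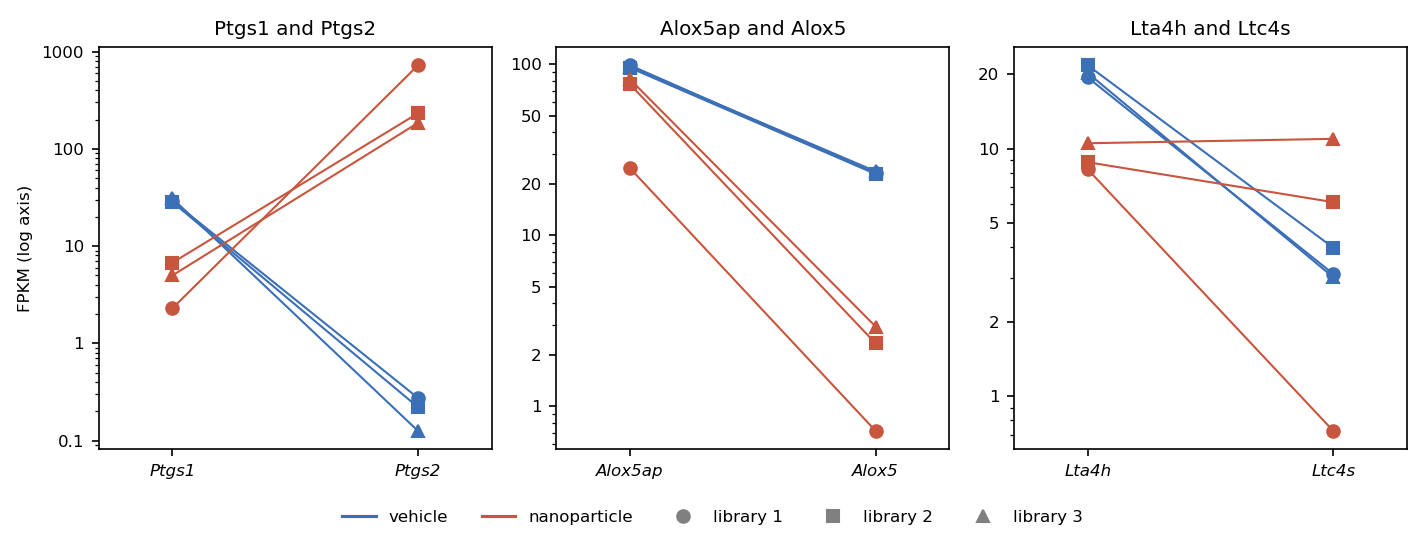
FPKM of 3 pairs of genes in each library, on log axes, with a line joining the genes of a pair in 1 library (vehicle blue, nanoparticle red). The lines of Ptgs1 and Ptgs2 cross between the groups, from 0.933% or less of cyclooxygenase FPKM in Ptgs2 to 97.2% or more, while Alox5 lies below Alox5ap in all 6 libraries.

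Ptges (ENSMUSG00000050737) encodes the inducible, membrane-bound prostaglandin E synthase that works with COX-2, and lies on chromosome 2 from 30889471 to 30929863 on the minus strand. It was at 1.17, 0.937 and 0.768 FPKM in vehicle and at 95.1, 32.6 and 26.5 FPKM with nanoparticles. The groups did not overlap, and as for Ptgs2 library 1 was the highest and library 3 the lowest of the treated libraries. The nanoparticle libraries were 99.1-fold, 34.0-fold and 27.6-fold above the vehicle mean, and the log2 difference was 4.51 (SE 0.458, limma adjusted p = 0.000828), or 3.96 without library 1. A pseudogene, Gm13400, lies within the Ptges locus on the same strand and reached 1.23 FPKM, so some reads may be shared.

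The prostaglandin E2 receptors did not pass. Ptger2 (chromosome 14, 44988195 to 45003820, plus strand), which encodes EP2, was at 1.26, 1.15 and 1.10 FPKM in vehicle and at 1.52, 0.873 and 1.15 FPKM with nanoparticles. The groups overlapped, with a log2 difference of 0.00 (SE 0.133, 95% interval -0.32 to 0.32, limma adjusted p = 0.998). Ptger4 (chromosome 15, 5206661 to 5244187, minus strand), which encodes EP4, was at 4.82, 4.68 and 5.19 FPKM in vehicle and at 3.78, 6.09 and 7.34 FPKM with nanoparticles. Library 1 lay below the controls and libraries 2 and 3 above them. The log2 difference of Ptger4 was 0.15 (SE 0.209, 95% interval -0.35 to 0.66, limma adjusted p = 0.614), and without library 1 it was 0.38 and passed (limma adjusted p = 0.0106). Its sign turned with the scaling, to -0.24 with equal FPKM sums and -0.14 with equal totals of reads. Ttc33, a coding gene at up to 14.9 FPKM, overlaps the Ptger4 locus on the other strand, and since the counting is not stated to use strand, reads of the 2 genes may not have been separated.

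On the leukotriene branch Alox5 (ENSMUSG00000025701), the 5-lipoxygenase, showed the largest fall of the 10 genes. It lies on chromosome 6 from 116410077 to 116461178 on the minus strand. It was at 23.0, 22.8 and 23.6 FPKM in vehicle and at 0.716, 2.33 and 2.92 FPKM with nanoparticles, where library 1 rests on 48 reads. Every treated library was below every control, by 32.3-fold, 9.95-fold and 7.92-fold from the vehicle mean in libraries 1 to 3. The log2 difference was -3.10 (SE 0.301, limma adjusted p = 0.000713), or -2.74 without library 1.

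Alox5ap (ENSMUSG00000060063; chromosome 5, 149264767 to 149288153, plus strand) encodes FLAP, the membrane protein that presents arachidonic acid to 5-lipoxygenase. It was the most abundant of the 10 genes in vehicle, at 98.5, 95.3 and 96.9 FPKM, and stood at 24.6, 76.2 and 81.5 FPKM with nanoparticles. The groups did not overlap, but library 1 was far below libraries 2 and 3. The log2 difference was -0.84 (SE 0.445, 95% interval -1.92 to 0.23, limma adjusted p = 0.199). Without library 1 the difference was smaller, at -0.29, and passed, since the spread within the group was smaller (SE 0.0528, limma adjusted p = 0.00299). With the FPKM sums made equal it was -1.31 (limma adjusted p = 0.028). Alox5ap exceeded Alox5 by 4.10-fold to 4.29-fold in the vehicle libraries and by 27.9-fold to 34.4-fold in the nanoparticle libraries, and on this ratio nanoparticle library 1 (34.4-fold) lay close to libraries 2 and 3 (32.8-fold and 27.9-fold).

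Lta4h (ENSMUSG00000015889; chromosome 10, 93453411 to 93484875, plus strand), the hydrolase that makes leukotriene B4, was at 19.4, 21.7 and 20.2 FPKM in vehicle and at 8.25, 8.81 and 10.5 FPKM with nanoparticles. The groups did not overlap, and the treated libraries lay close together. The mean fell 2.22-fold, from 20.4 ± 1.18 to 9.19 ± 1.18 FPKM (SD, n = 3 each), with a log2 difference of -1.08 (SE 0.118, limma adjusted p = 0.00107), or -1.01 without library 1.

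Ltc4s (ENSMUSG00000020377; chromosome 11, 50236461 to 50238616, minus strand), the synthase of leukotriene C4, was at 3.12, 3.98 and 3.02 FPKM in vehicle and at 0.725, 6.08 and 10.95 FPKM with nanoparticles. Nanoparticle library 1, with 12 reads, lay below every control, and libraries 2 and 3, with 102 and 214 reads, lay above every control. The log2 difference over all libraries was 0.27 (SE 0.673, 95% interval -1.35 to 1.90, limma adjusted p = 0.789). Without library 1 it was 1.08 and passed (SE 0.221, limma adjusted p = 0.00528), and with equal FPKM sums over all 6 libraries it was -0.11. The ratio of Lta4h to Ltc4s was 5.45 to 6.69 in vehicle, and 11.4, 1.45 and 0.960 in nanoparticle libraries 1 to 3, so libraries of the same group lay on both sides of the controls.

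**Figure D3:**
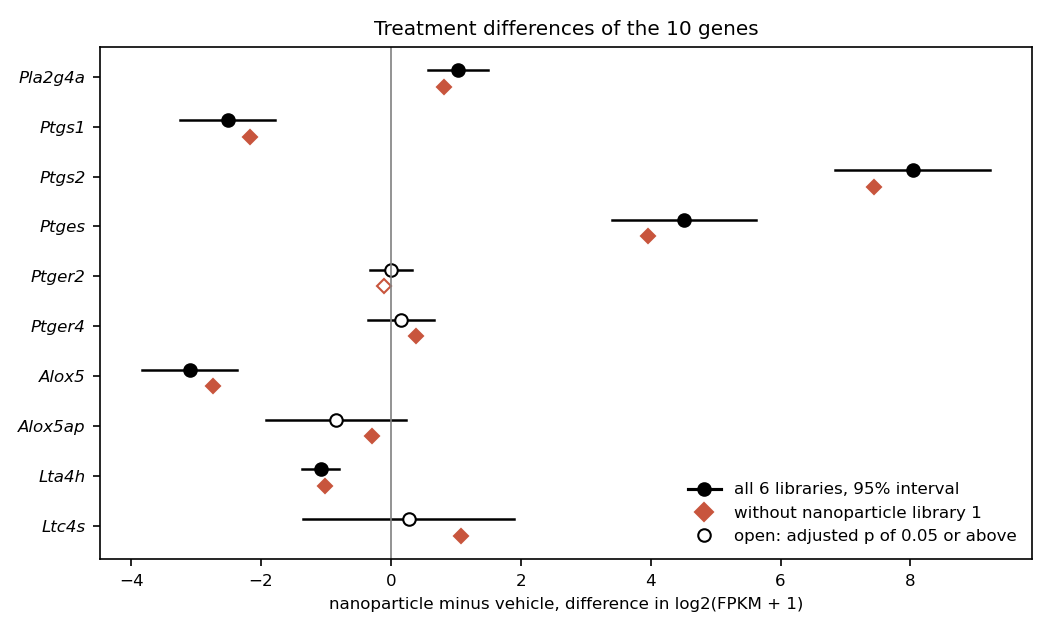
Nanoparticle minus vehicle difference in log2(FPKM + 1) for the 10 genes, over all 6 libraries (black, with 95% interval from limma) and without nanoparticle library 1 (red diamonds), where open symbols did not pass. The range runs from -3.10 for Alox5 to 8.03 for Ptgs2, and Ptger4, Alox5ap and Ltc4s pass in the fit without library 1 but not in the fit over all 6 libraries shown here.

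Among the 6 called genes, nanoparticle library 1 was the farthest of the treated libraries from the vehicle mean in 6 of 6. Over all 3550 called genes it was the farthest in 53.0%. The order of levels changed with treatment. In vehicle Alox5ap came first, followed by Ptgs1, Alox5, Lta4h, Pla2g4a, Ptger4, Ltc4s, Ptger2, Ptges and Ptgs2, and neighbours in this order had separate ranges except Ptger2 and Ptges. With nanoparticles Ptgs2 came first, at 380 ± 298 FPKM (SD, n = 3), followed by Alox5ap, Ptges, Pla2g4a, Lta4h, Ltc4s, Ptger4, Ptgs1, Alox5 and Ptger2. Ranges of Alox5ap and Ptges overlapped, as did those of every neighbouring pair from Lta4h down.

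The rest of the pathway was described from a list of 63 further genes, of which 55 were in the table and 36 were tested. Of these, 14 were called (38.9%, beside 33.2% of all tested genes), 1 higher and 13 lower, with a median log2 difference of -0.34 beside 0.00 over all tested genes. Without nanoparticle library 1, 28 of 36 were called, 9 higher and 19 lower, beside 64.8% of all tested genes (34.3% higher and 30.5% lower). The 14 genes called over all libraries were all called in the same direction without it. The filter on low values bears on the balance of directions: 6 of the 13 lower genes (Dagla, Acsl3, Lpcat4, Hpgds, Alox15 and Dpep2) reached 1 FPKM in all 3 vehicle libraries and in fewer than 3 nanoparticle libraries, so they passed it through the group where they were high.

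The gene that rose was Acsl1, a long-chain acyl-CoA synthetase that activates fatty acids, from 6.03 ± 0.205 to 137 ± 40.5 FPKM (SD, n = 3 each), a 22.7-fold difference (log2 difference 4.26, SE 0.206, limma adjusted p = 8.2e-05). It was at 183, 121 and 107 FPKM in nanoparticle libraries 1 to 3, all far above the controls. In the same group of 9 genes for activation and re-esterification of arachidonate, 4 fell, beside 16.2% of all tested genes, and without library 1 there were 4 higher and 4 lower. Lpcat4, Lpcat1 and Mboat7, which put fatty acids back into phospholipids, had log2 differences of -1.72, -1.02 and -0.51, and Acsl3, an acyl-CoA synthetase named here after its values were seen, had -1.31. Acsl4, the synthetase that prefers arachidonic acid, was at 34.3 ± 0.499 and 41.0 ± 4.24 FPKM (SD, n = 3 each) and did not pass (limma adjusted p = 0.137), but passed without library 1 (log2 difference 0.16, limma adjusted p = 0.0248).

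Of 6 tested genes that release arachidonate or its precursors, 3 fell and 0 rose, beside 16.2% and 17.0% of all tested genes, and without library 1 there were 3 lower and 2 higher. Daglb, a diacylglycerol lipase, fell 6.47-fold from 19.6 ± 0.343 to 3.03 ± 1.60 FPKM (SD, n = 3 each, limma adjusted p = 0.00214). Pla2g15, the lysosomal phospholipase A2, fell 2.07-fold (log2 difference -1.02), and Dagla, another diacylglycerol lipase, at 2.17 FPKM in vehicle, had -0.68. Mgll, monoacylglycerol lipase, was at 34.9 ± 1.18 and 58.1 ± 18.9 FPKM (SD, n = 3 each) and did not pass (limma adjusted p = 0.0576), but passed as higher without library 1 (log2 difference 0.43, limma adjusted p = 0.000893).

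The terminal synthases other than Ptges went down or did not pass. Tbxas1, thromboxane A synthase, fell from 25.2 ± 1.70 to 9.998 ± 3.61 FPKM (SD, n = 3 each, log2 difference -1.31, limma adjusted p = 0.011), and Hpgds, the haematopoietic prostaglandin D synthase, fell from 2.73 to 0.868 FPKM (limma adjusted p = 0.00206). Ptges2 and Ptges3, prostaglandin E synthases made without induction, had log2 differences of 0.31 and 0.31 and did not pass, so of 7 tested synthases 2 fell and 0 rose over all libraries, beside 16.2% and 17.0% of all tested genes. Without library 1 both passed as higher, at 0.41 and 0.54 (limma adjusted p = 0.00936 and 0.000177), and of the 7 synthases 2 were higher and 3 lower. Ptgir, the prostacyclin receptor, was the only other prostanoid receptor tested and fell from 53.3 ± 0.564 to 24.3 ± 10.0 FPKM (SD, n = 3 each, log2 difference -1.19, limma adjusted p = 0.0313). In vehicle its level was above that of Ptger4 and Ptger2. Of the 3 tested genes for prostanoid export and breakdown (Abcc4, Ptgr1 and Ptgr2) none passed in limma over all libraries, with adjusted p-values of 0.129, 0.104 and 0.0846. Without library 1 all 3 passed, Ptgr1 higher (log2 difference 0.82) and Abcc4 and Ptgr2 lower (-0.47 and -0.45), with limma adjusted p-values of 0.000377, 0.00395 and 0.00343.

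The other lipoxygenase tested, Alox15, fell from 5.91 ± 1.01 to 0.358 ± 0.449 FPKM (SD, n = 3 each, log2 difference -2.39, SE 0.249, limma adjusted p = 0.000899). Alox15 was listed at 0 in nanoparticle library 1 and stood at 0.862 and 0.211 FPKM in libraries 2 and 3, below every control, so it passed the filter on low values through the vehicle group alone. Among leukotriene receptors, Cysltr1, which reads leukotrienes C4 and D4, fell from 6.23 ± 0.194 to 3.33 ± 1.11 FPKM (SD, n = 3 each, log2 difference -0.78, limma adjusted p = 0.0284). Ltb4r1, the high-affinity receptor of leukotriene B4, was at 40.4 to 41.7 FPKM in vehicle and at 4.66, 17.3 and 25.2 FPKM with nanoparticles. The groups of Ltb4r1 did not overlap, but the spread among treated libraries was wide and the gene did not pass (log2 difference -1.60, SE 0.538, limma adjusted p = 0.0646). Without library 1 it was -0.94 and passed (limma adjusted p = 0.00137). Cysltr2 went the other way, at 1.04 to 1.32 FPKM in vehicle and 1.62 to 4.18 FPKM with nanoparticles. Its groups did not overlap, but it did not pass (log2 difference 0.58, limma adjusted p = 0.160), nor without library 1 (0.25, limma adjusted p = 0.0634). Of these 3 tested receptors 1 fell and 0 rose, beside 16.2% and 17.0% of all tested genes, and without library 1 there were 2 lower and 0 higher. Dpep2, a dipeptidase that trims cysteinyl leukotrienes, was the 1 gene called of 6 for export, side steps and breakdown (log2 difference -0.90). Its name stands on 2 rows of the table, and the row with the higher level was used. Thus 1 of these 6 fell and 0 rose, beside 16.2% and 17.0% of all tested genes. Without library 1, 3 were lower and 0 higher, beside 30.5% and 34.3%. Cotl1 (log2 difference -0.29, limma adjusted p = 0.00165) and Mgst3 (-0.30, limma adjusted p = 0.0408) then passed as well. The calls of Lpcat1, Lpcat4, Mboat7, Ptgir and Cysltr1 were each lost when any 1 vehicle library was left out. That of Cysltr1 was also lost without nanoparticle library 2 (log2 difference -0.86, limma adjusted p = 0.0529).

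**Figure D4:**
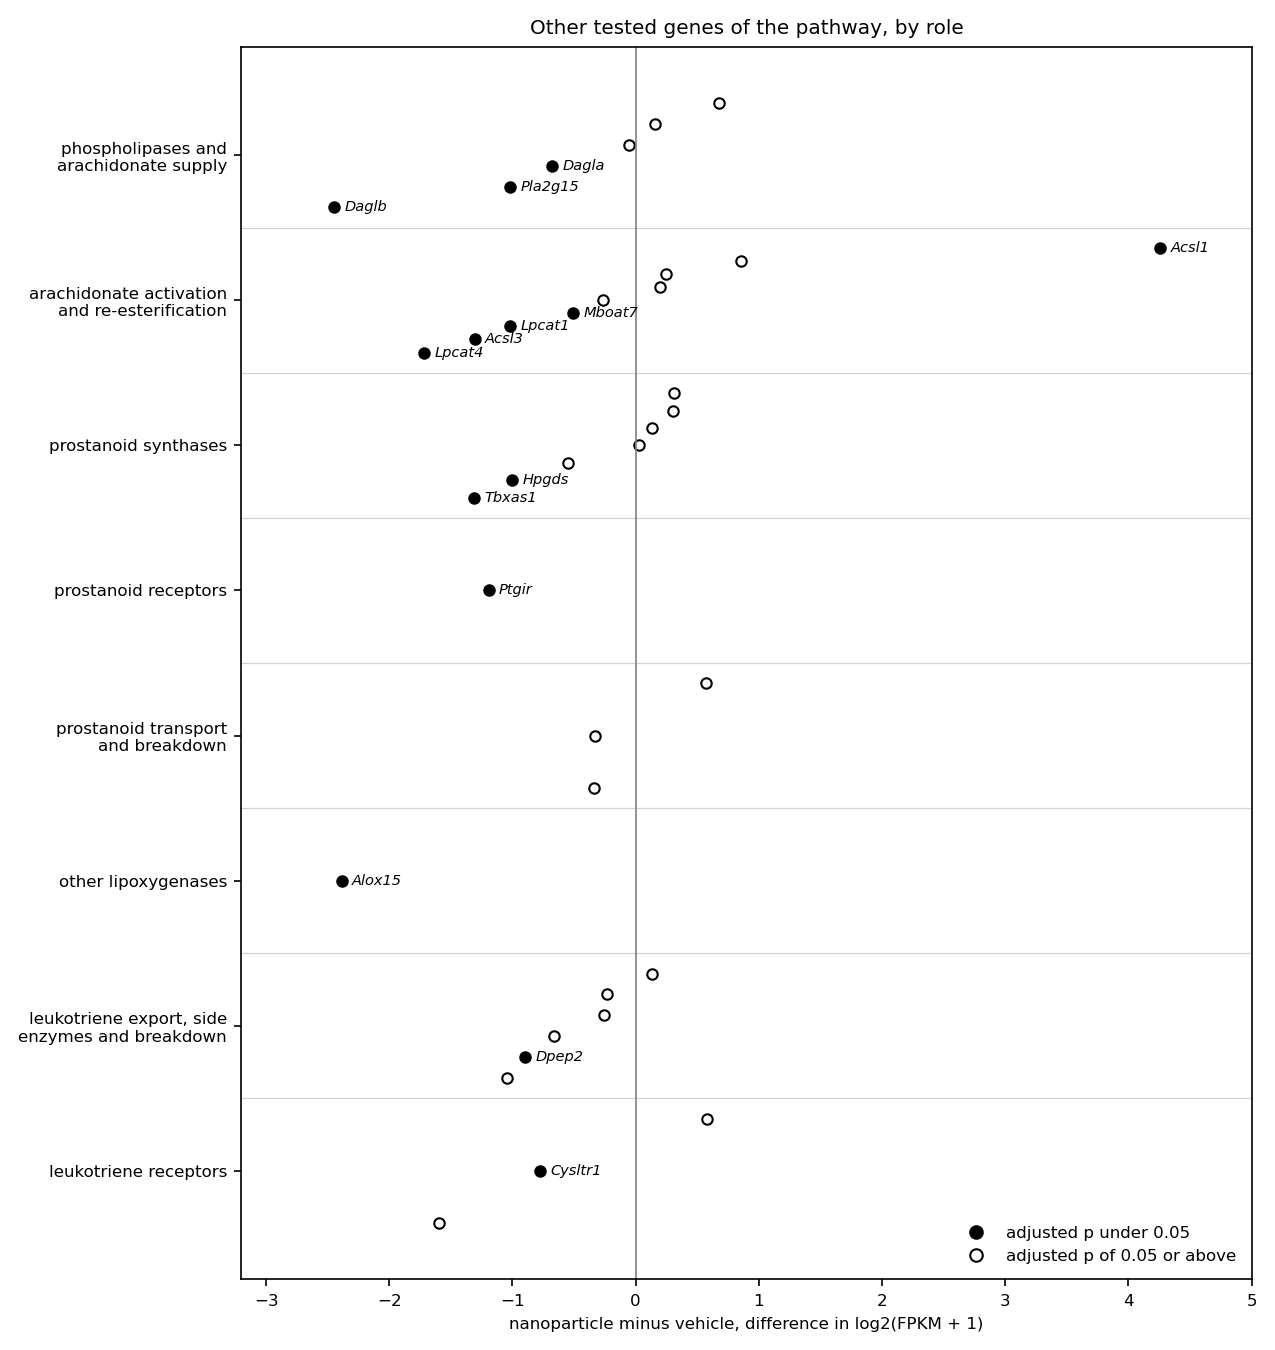
Nanoparticle minus vehicle difference in log2(FPKM + 1) for the 36 other tested genes of the pathway, grouped by role, with filled points for adjusted p under 0.05. Acsl1, at 4.26, is the filled point right of 0, and the other 13 filled points lie to its left, down to -2.45 for Daglb.

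The genes whose log2(FPKM + 1) followed Ptgs2 most closely over the 6 libraries were Sqstm1, Oasl2, Ddx58, Casp4 and Clmp, with Pearson's r of 0.9995 to 1.0000 among 6242 protein-coding genes with at least 5 FPKM in the higher group. Sqstm1, an autophagy receptor, went from 89.1 ± 1.89 to 561 ± 135 FPKM (SD, n = 3 each) and, like Ptgs2, was highest in nanoparticle library 1. Those closest to Alox5 were Itpripl1, Zmat3, Flnc, Cnr2 and Chek2, with r of 0.9989 to 0.9996. Cnr2, the cannabinoid receptor CB2 of immune cells, went from 13.1 ± 0.409 to 2.39 ± 0.835 FPKM (SD, n = 3 each). Such values are high for many genes here, since 295 genes exceeded r of 0.99 for Ptgs2 and 147 for Alox5, and all points share the same 6 libraries. Vehicle and nanoparticle values lie far apart for these genes, so r mostly reflects that gap, and likeness within a group was not tested.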

How the data were processed

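The study deposited its expression values in a pair of tables that hold the same 140388 numbers, although 1 is named for read counts. The values are not whole. No source used here states their unit, and from the values it was taken that the authors gave FPKM with a scaling between libraries. The submitters' processing notes name CASAVA, STAR 2.5, HTSeq, edgeR 3.16.5, DESeq2 and the builds mm10 and hg19, with no role or order. Reads were recovered with merged exon lengths of GENCODE M21 (GRCm38) and 1 scale per library, and all 10 genes gave whole reads with their annotated length.

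Groups and numbers came from the sample titles. limma 3.58.1 in R 4.3.3 was fitted to log2(FPKM + 1) of the 10682 genes reaching 1 FPKM in 3 or more libraries, with group as the single term, eBayes with trend, and Benjamini-Hochberg adjustment at 0.05. The fit was also run on simulated reads with the same added spread in every library and few changed genes. Those settings differ from the data, so that run cannot speak to nanoparticle library 1 or to the scaling. Pathway genes were named when they were called, their groups were separate and the higher group mean reached 5 FPKM, up to 4 per role. Other listed genes are named as exceptions, after their values were seen. The genes and lists were chosen with earlier results of these data known. Alternatives were 13 planned settings and 2 added after seeing the data (scaling by recovered reads, and limma-voom). Limma-voom kept the deposited scale of each library. Only equal FPKM sums and equal totals of recovered reads changed the scaling. Counting error sets the precision of low values, and the sources used here name no molecular identifiers, so several reads may come from 1 molecule. Python 3.11.15 and matplotlib 3.10.9 were used for the rest.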

Additional observations from a re-analysis of the deposited data

How the results depend on the processing

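Of the 90 refits of the 6 called genes, over 15 alternatives, 89 kept direction and call, and the exception was Pla2g4a with equal FPKM sums (0.61, limma adjusted p = 0.0838). Counts over all tested genes moved more. Leaving out 1 library gave 2141 to 6923 called genes, with 1114 to 3660 higher and 1027 to 3263 lower, and the high ends came without nanoparticle library 1. Equal FPKM sums gave 881 higher and 4306 lower, equal totals of reads 1108 and 3613, and a minimum of 5 FPKM left 975 lower. Of the 10 genes, 3 to 5 were called higher with 1 library left out. Of the 36 other pathway genes, 9 to 28 were then called, 1 to 9 higher and 8 to 19 lower. A minimum of 5 FPKM left 22 of these tested and 9 called (8 lower), equal FPKM sums called 20 lower, and limma-voom called 2 higher. With no filter 55 listed genes were tested and 14 called, 10 of the 36 and 4 others (Pla2g4f higher, Ggt5, Ltb4r2 and Ptger3 lower), so 2 were higher. Signs turned for genes that did not pass: leaving out 1 library moved Ptger2 from -0.11 to 0.10 (0.03 without vehicle library 1, 0.0048 without nanoparticle library 3), Ptger4 from -0.018 to 0.38 and Ltc4s from -0.32 to 1.08. Equal FPKM sums gave -0.24 for Ptger4 and -0.11 for Ltc4s, and equal totals of reads -0.14 for Ptger4. The cause was not tested. Lpcat1, Lpcat4, Ptgir and Cysltr1 also lost their calls with no filter on low values, where 23398 genes were tested.

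Vehicle and nanoparticle libraries share replicate numbers, but the deviations of same-numbered libraries correlated at 0.07, 0.11 and -0.06, and not every library correlated best with its own number, so the numbers were not taken as pairs. With a replicate block 2785 genes were called, among them the 6 of the 10 genes called without it, and 14 pathway genes. Depth limits the genes with few reads, such as Ptgs2 in vehicle and Alox5 in nanoparticle library 1.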

Other observations

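The filter on low values left out 19 listed pathway genes that were in the table. The 6 whose groups did not overlap, chosen after their values were seen, are given in recovered reads. The groups of the rest overlapped. Among tested genes 52.1% did not overlap, and no such share was taken over the genes left out by the filter. Alox12, the platelet-type lipoxygenase, had 0, 1 and 0 reads in vehicle libraries 1 to 3 and 51, 16 and 25 reads in nanoparticle libraries 1 to 3. Pla2g4f, a relative of Pla2g4a, had 2, 6 and 7 reads in vehicle and 23, 42 and 24 reads with nanoparticles. For both genes every nanoparticle library was above every vehicle library.

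Ptger3, the prostaglandin E2 receptor EP3, had 56, 45 and 46 reads in vehicle and 4, 8 and 2 reads with nanoparticles. Ltb4r2, the low-affinity leukotriene B4 receptor, had 31, 28 and 24 reads in vehicle and 3, 0 and 10 reads with nanoparticles. Ggt5, which converts leukotriene C4 to D4, had 81, 105 and 114 reads in vehicle and 7, 19 and 49 reads with nanoparticles. Hpgd, which breaks down prostaglandin E2, had 9, 2 and 1 reads in vehicle and 0 in each nanoparticle library. Every vehicle library was above every nanoparticle library for these 4 genes. With no filter on low values limma called Pla2g4f higher and Ptger3, Ltb4r2 and Ggt5 lower at an adjusted p under 0.05, and did not call Alox12 or Hpgd.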
